A study of Homo sapiens with 4 samples.

Results

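Exosomes released by spheres of the colon cancer line labelled HCT29 were compared with exosomes released by its parental culture, miRNA by miRNA. A mature miRNA entered the comparison when 1 of the HCT29 libraries held 10 reads of it or more, which kept 224 of 2588 listed miRNAs. The sphere group is HCT29 cells grown for 3 weeks in a defined stem cell medium, DMEM/F12 with N2 supplement, 10 ng/ml bFGF and 10 ng/ml EGF, and its exosomes came from that culture's medium. The parental group is HCT29 cells in complete RPMI, and its exosomes were collected in complete RPMI from which exosomes had been depleted. Both cultures were kept at the same temperature and carbon dioxide level, no genotype or drug treatment is given for either, and exosomes of both were purified by differential ultracentrifugation before small RNA sequencing. Each group is 1 library of bulk vesicles from 1 culture medium, so no ratio has a replicate error and no test of the cultures was possible. The growth text of both HCT29 samples names the line HCT15, the other line of the series, so the line is called HCT29 here as in the sample titles.

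A miRNA is cut from a hairpin in a longer transcript, first in the nucleus and then in the cytoplasm, and either arm of the hairpin (5p or 3p) can be loaded into an Argonaute protein. The loaded strand finds messenger RNAs mainly through its seed, bases 2 to 8 from its 5′ end, so miRNAs with 1 seed are grouped as a family. Cells pass some of their miRNAs into exosomes, small vesicles of endosomal origin, and the miRNA make-up of a vesicle preparation need not match that of the cell. In colon epithelium, miR-192, miR-194, miR-215, the miR-200 family and miR-375 are characteristic miRNAs, and the miR-17-92 cluster and miR-21 are known for their high levels in colorectal tumours.

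The sequences on which the comparison turns are given first, each 5′ to 3′ from RefSeq (GRCh38.p14), with the seed in capitals. The following miRNAs had the highest sphere over parental ratios among those with at least 10 parental reads.
miR-375: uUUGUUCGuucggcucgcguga
miR-1910-5p: cCAGUCCUgugccugccgccu
miR-125a-5p: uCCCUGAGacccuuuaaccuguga
miR-92b-3p: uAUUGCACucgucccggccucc
miR-7706: uGAAGCGCcugugcucugccgaga
miR-215-5p: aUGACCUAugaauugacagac

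Several of the lowest ratios belonged to miRNAs that share a seed. The lines below put miR-17-5p, miR-20a-5p, miR-106b-5p and miR-93-5p (seed AAAGUGC) beside miR-19b-3p, which comes from the same transcript as miR-17-5p with another seed. They also give miR-200a-3p and miR-141-3p (seed AACACUG), miR-98-5p of the let-7 seed and miR-29b-3p.
miR-20a-5p: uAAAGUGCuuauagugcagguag
miR-17-5p: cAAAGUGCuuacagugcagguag
miR-106b-5p: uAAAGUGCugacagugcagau
miR-93-5p: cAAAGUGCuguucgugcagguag
miR-19b-3p: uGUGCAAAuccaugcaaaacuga
miR-200a-3p: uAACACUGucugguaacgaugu
miR-141-3p: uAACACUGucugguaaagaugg
miR-98-5p: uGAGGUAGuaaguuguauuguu
miR-29b-3p: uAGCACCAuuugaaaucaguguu

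A further set is shown because its members share a seed or a transcript with a miRNA above and had a different ratio. miR-92a-3p shares the seed of miR-92b-3p and the transcript of miR-17-5p, miR-192-5p shares the seed of miR-215-5p, and let-7f-5p the seed of miR-98-5p. The pair miR-221-3p and miR-222-3p shares both seed and transcript.
miR-92a-3p: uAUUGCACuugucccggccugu
miR-192-5p: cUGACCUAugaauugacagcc
let-7f-5p: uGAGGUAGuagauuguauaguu
miR-221-3p: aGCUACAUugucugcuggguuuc
miR-222-3p: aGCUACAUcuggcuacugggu

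Levels are given in RPM, each library being scaled to 1000000 reads, and every value is a whole number of reads when divided by what 1 read is worth, within 0.01 read. The totals recovered in this way were 530920 reads for the sphere library and 110666 for the parental library, a depth ratio of 4.80, and the listed miRNAs held 86.8% and 87.3% of them. 1 read was 1.88 RPM in the sphere library and 9.04 RPM in the parental library, so 10 reads were 18.8 and 90.4 RPM. A miRNA with 0 reads is set at no more than 3 reads, 5.65 RPM in the sphere library and 27.1 RPM in the parental library. Of the listed miRNAs, 423 had a read in the sphere library and 392 in the parental library, 283 of them in both. Markers of intestinal epithelium fit the colon label, as all 9 taken had reads in both libraries. Their summed level was 132410 RPM in the sphere library and 98946 RPM in the parental library. That the sphere sum was the larger rests on miR-375, at 45016 and 994 RPM. miR-192-5p and miR-215-5p also had higher RPM in the sphere library, whereas miR-194-5p and all markers of the miR-200 family had lower RPM there. Markers of nerve (miR-9-5p, miR-124-3p), muscle (3 miRNAs) and pluripotent cells (8 miRNAs) had 0 reads in both libraries.

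miR-375, a miRNA of intestinal enteroendocrine and pancreatic islet cells, stood at 45016 RPM in the sphere library and 994 RPM in the parental library (23900 and 110 reads), which is 45.3-fold higher (95% interval 37.6 to 55.1). It made up 5.19% of all listed miRNA reads of the sphere library and 0.114% of those of the parental library, and its rank by abundance was 6 and 60. miR-21-5p, the oncogenic miRNA of the VMP1 locus, went the other way, with 13124 RPM in the sphere library and 52898 RPM in the parental library, 4.03 times lower (3.89 to 4.17). miR-125a-5p, a homologue of the developmental timing miRNA lin-4 of worms, was 9.51-fold higher (7.92 to 11.5), and 5 of the 6 miRNAs of the miR-17-92 transcript were at least 2-fold lower, led by miR-20a-5p at 35.4 times lower (21.6 to 61.6). These intervals are exact Clopper-Pearson intervals on the recovered reads and cover counting error alone. In a bulk vesicle preparation, fewer vesicles of a kind and fewer copies of a miRNA per vesicle cannot be told apart.

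**Figure D1:**
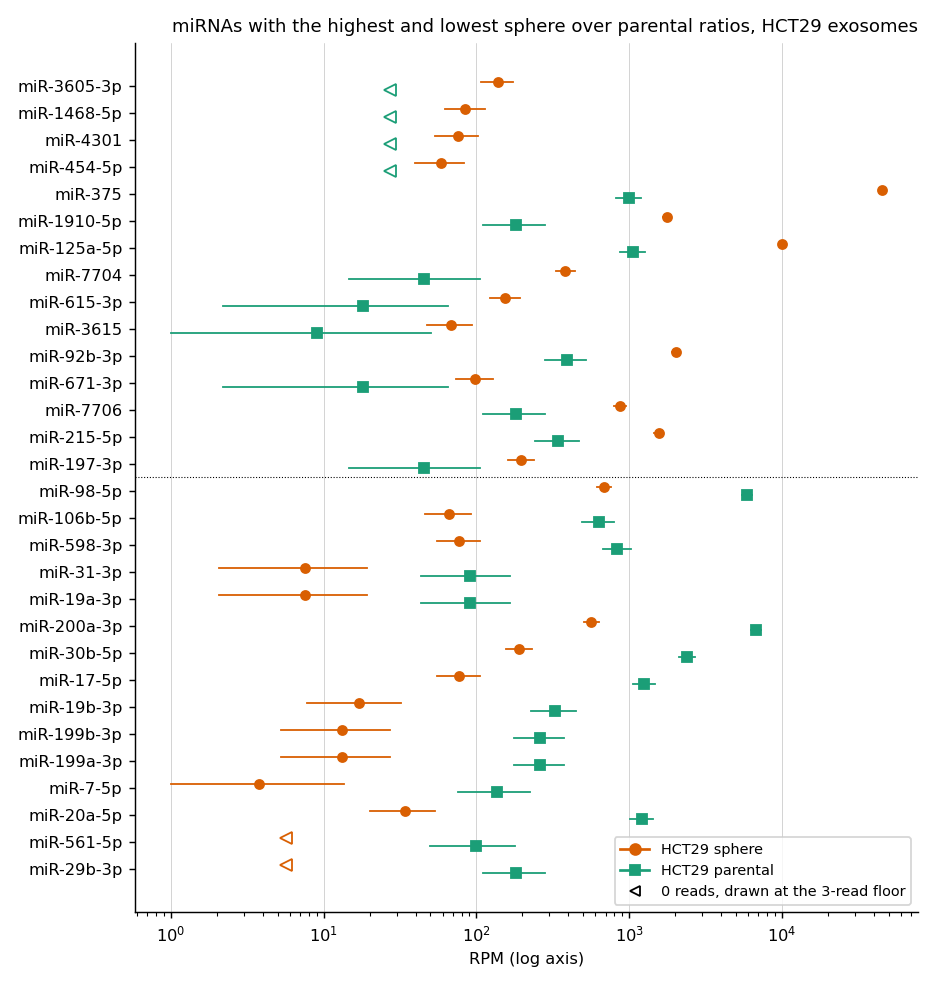
Level of miRNAs named by the largest ratios in each direction, in RPM on a log axis, in the sphere (orange circles) and parental (green squares) HCT29 library, 1 library each, with counts of 0 as open triangles at the 3-read floor. Lines are exact 95% Poisson intervals on the recovered reads, cut off at 1 RPM, and cover counting error only; the sphere and parental points of miR-375, at 45016 and 994 RPM, are far apart relative to those intervals.

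With a ratio of RPM + 1 of at least 2-fold as the call, 52 of the 224 miRNAs were higher in the sphere library (23.2%), 81 were lower (36.2%) and 91 lay within 2-fold. The median log2 ratio of RPM + 1 over the 224 was -0.57. Counting error alone left an interval clear of 1 for 26 of the higher and 73 of the lower miRNAs. The difference in depth bears on these counts: 73 miRNAs were kept through the sphere library alone, of which 37 were higher. Through the parental library alone 11 were kept, all 11 of them lower. The filter fixed that outcome, as these had less than 18.8 RPM in the sphere and at least 90.4 RPM in the parental library. Among the 140 with at least 10 reads in both libraries, 15 were higher and 63 lower. That set also leans to lower, as a miRNA below 90.4 RPM in the sphere library entered only with more parental RPM. At the edge of the rule, 7 miRNAs had 10 reads as the larger of their counts, miR-19a-3p and miR-31-3p among them, and 5 had 9 as the larger and were left out, such as miR-148a-5p and miR-93-3p.

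The split between higher and lower depends on how the libraries are scaled, while differences between miRNAs of 1 library do not. TMM scaling of the recovered reads moved the log2 ratios up by 0.88 to 0.98 where both libraries had reads and by 0.47 to 0.49 for the 18 miRNAs with 0 reads in 1 library, and gave 87 miRNAs higher (38.8%) and 41 lower (18.3%). DESeq2 size factors, with a shift of up to 0.86, left 83 miRNAs higher (37.1%) and 48 lower (21.4%). All 52 higher miRNAs were also higher under TMM, which had to follow from the upward shift, and 41 of the 81 lower ones stayed lower. The 52 higher miRNAs held 122186 RPM in the sphere library and 28708 RPM in the parental library, and the 81 lower ones 44349 and 172528 RPM. The ratio of 1 miRNA to another within a library, given below, does not depend on the scaling.

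**Figure D2:**
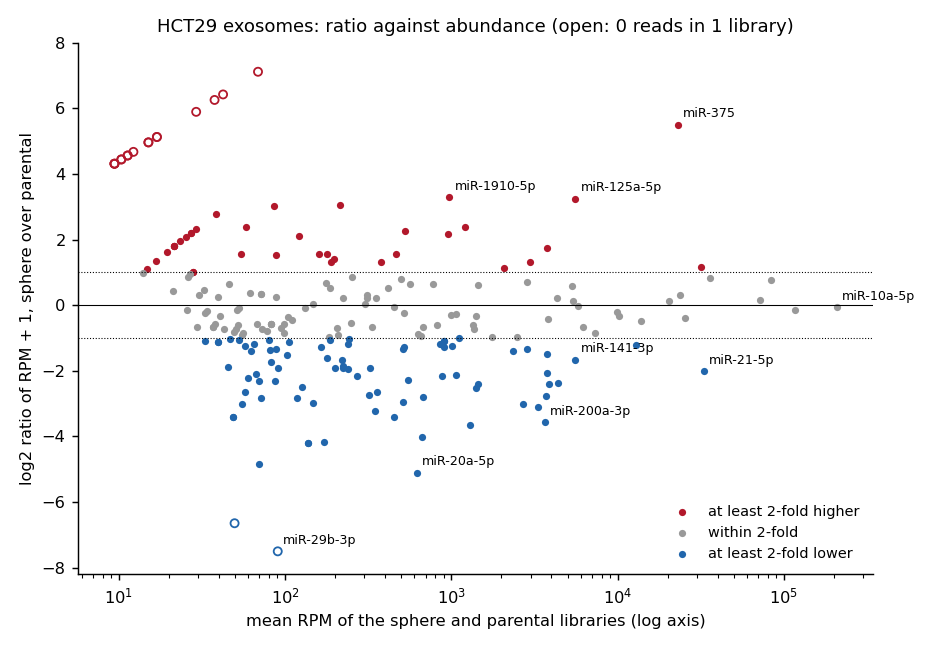
Log2 ratio of RPM + 1, sphere over parental, against the mean RPM of both libraries (log axis) for the 224 miRNAs, 1 point each; dotted lines mark 2-fold, and open points have 0 reads in 1 library. The rows of points at the upper left are miRNAs with 0 to 3 parental reads. miR-375 has the highest ratio among the 10 most abundant miRNAs of either library, and the less abundant miR-125a-5p is at 3.25.

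Of the 11 miRNAs among the 10 most abundant of either library, 8 lay within 2-fold, miR-375 and miR-182-5p were higher and miR-21-5p was lower. miR-10a-5p, made from an intron of HOXB3, was the most abundant miRNA of both libraries at 203614 RPM in the sphere and 212296 RPM in the parental library, and miR-99b-5p stood at 110431 and 123082 RPM. miR-191-5p, from an intron of DALRD3, stood at 106025 RPM in the sphere and 62341 RPM in the parental library, 1.70-fold higher (1.66 to 1.74). The 5 most abundant miRNAs held 62.3% of the listed reads of the sphere library and 59.4% of those of the parental library, and 9 of the 10 most abundant were shared. The sphere library was the more concentrated, with 20 miRNAs holding 90% of its listed reads against 30 in the parental library.

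Besides miR-375 and miR-125a-5p, 4 miRNAs of the first set of sequences had at least 4-fold ratios on 20 or more parental reads. miR-1910-5p, from an intron of C16orf74, had 1767 RPM in the sphere library and 181 RPM in the parental library, 9.78-fold higher (6.29 to 16.1). miR-92b-3p had 2025 and 389 RPM (5.21-fold, 3.84 to 7.24). miR-7706 had 872 and 181 RPM (4.83-fold, 3.09 to 7.97). Little is established about the targets of miR-1910-5p and miR-7706, whereas miR-92b-3p has the seed of the abundant miR-92a-3p. miR-215-5p, a p53-inducible miRNA of gut epithelium, had 1558 RPM in the sphere and 343 RPM in the parental library, 4.54-fold higher (3.28 to 6.46).

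Hairpins of these miRNAs lie apart in the genome (GRCh38). That of miR-375 is on chromosome 2 from 219001645 to 219001708, outside any gene annotated on its strand, and that of miR-125a is in an intron of SPACA6 on chromosome 19 from 51693254 to 51693339. That of miR-1910 is on chromosome 16 from 85741621 to 85741700, and that of miR-92b on chromosome 1 from 155195177 to 155195272. That of miR-215 is on the same chromosome as miR-92b, from 220117853 to 220117962, beside 1 of the 2 miR-194 hairpins.

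Other high ratios rested on few parental reads. miR-615-3p, from the HOXC cluster, had 82 sphere and 2 parental reads, a ratio of 8.55 (2.29 to 71.8). miR-7704, within an exon of HOXD1, had 203 and 5 reads (8.46-fold, 3.57 to 26.3). miR-3615 had 36 and 1 reads, a ratio of 7.5 (1.26 to 305). These intervals lie above 1 and are wide.

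Of the 52 higher miRNAs, 16 had 0 parental reads and a further 17 had 1 to 3. Set against 3 parental reads, 4 of the 16 were at least 2-fold higher. miR-3605-3p, from an exon of PHC2, had 73 sphere reads and was at least 5.07-fold higher. miR-1468-5p had 45 (at least 3.13-fold), miR-4301 had 40 (at least 2.78-fold) and miR-454-5p had 31 (at least 2.15-fold). For the other 12 that bound was below 2-fold, as for miR-132-3p at 18 sphere reads and 0 parental reads. miR-146a-5p, which is induced by NF-kB and represses TRAF6 and IRAK1, had 132 RPM in the sphere and 45.2 RPM in the parental library, 2.92-fold higher on 5 parental reads (1.19 to 9.27).

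The miR-17-92 and miR-106 clusters are oncogenic transcripts driven by MYC, whose miRNAs carry several seeds. Of 12 kept miRNAs on their list, which also holds the related miR-92b-3p from a hairpin of its own, 8 were lower, 2 were higher and the median log2 ratio was -2.36. Under TMM 7 were lower and 3 higher. Over all 224, against which this and the following lists are to be read, 36.2% were lower and 23.2% higher with a median of -0.57, and under TMM 18.3% and 38.8%. The 2 higher ones were miR-92b-3p and miR-25-5p, the minor strand of miR-25. miR-25-5p rested on 2 parental reads, with an interval that spans 1 (0.506 to 18.4). Within the miR-17-92 transcript (MIR17HG, chromosome 13 from 91350605 to 91351391), miR-17-5p had 77.2 RPM in the sphere and 1256 RPM in the parental library, 16.3 times lower (11.4 to 23.6). miR-20a-5p had 33.9 and 1202 RPM. miR-19b-3p had 17.0 and 325 RPM, 19.2 times lower (9.07 to 45.3).

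miR-92a-3p, the last miRNA of that transcript, was on the other side of these: 45653 RPM in the sphere and 25844 RPM in the parental library, 1.77-fold higher (1.70 to 1.84). The level of miR-92a-3p was 591 times that of miR-17-5p in the sphere library and 20.6 times in the parental library. miR-92a-3p and miR-19b-3p each have a further hairpin on chromosome X, so their reads need not all come from this transcript. In HCT15, miR-92a-3p stood at 53.2 times miR-17-5p in the sphere library and 63.8 times in the parental library, which is close to even.

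The paralogous miR-106b-25 cluster in an intron of MCM7 (chromosome 7 from 100093560 to 100094074) repeated that order of seeds. miR-93-5p had 1447 RPM in the sphere and 6127 RPM in the parental library, 4.24 times lower (3.81 to 4.70), and miR-106b-5p had 65.9 and 633 RPM, 9.6 times lower (6.31 to 14.8). miR-25-3p, with the seed of miR-92a-3p, was level at 5683 and 5837 RPM. The level of miR-25-3p was 3.93 times that of miR-93-5p in the sphere library and 0.953 times in the parental library.

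Grouped by seed, the 195 kept miRNAs with a RefSeq sequence formed 29 groups of 2 or more. Kept miRNAs without such a sequence, miR-30b-5p, miR-30d-5p and miR-320a among them, are left out of these groups. Under RPM, none of the 29 held both a higher and a lower member. Under TMM some did, as with let-7e-5p (log2 1.58) and miR-98-5p (-2.13), or miR-222-3p (1.69) and miR-221-3p (-1.41). The 4 miRNAs with seed AAAGUGC, which targets the cell cycle inhibitor CDKN1A, were all lower, with summed levels of 1624 RPM in the sphere and 9217 RPM in the parental library, 5.68 times lower. The 3 with seed AUUGCAC (miR-25-3p, miR-92a-3p and miR-92b-3p) summed to 53360 and 32070 RPM, 1.66-fold higher, with 1 higher and 0 lower. Seed groups share sequence, hairpin clusters and reads, so they are no independent count of the members.

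**Figure D3:**
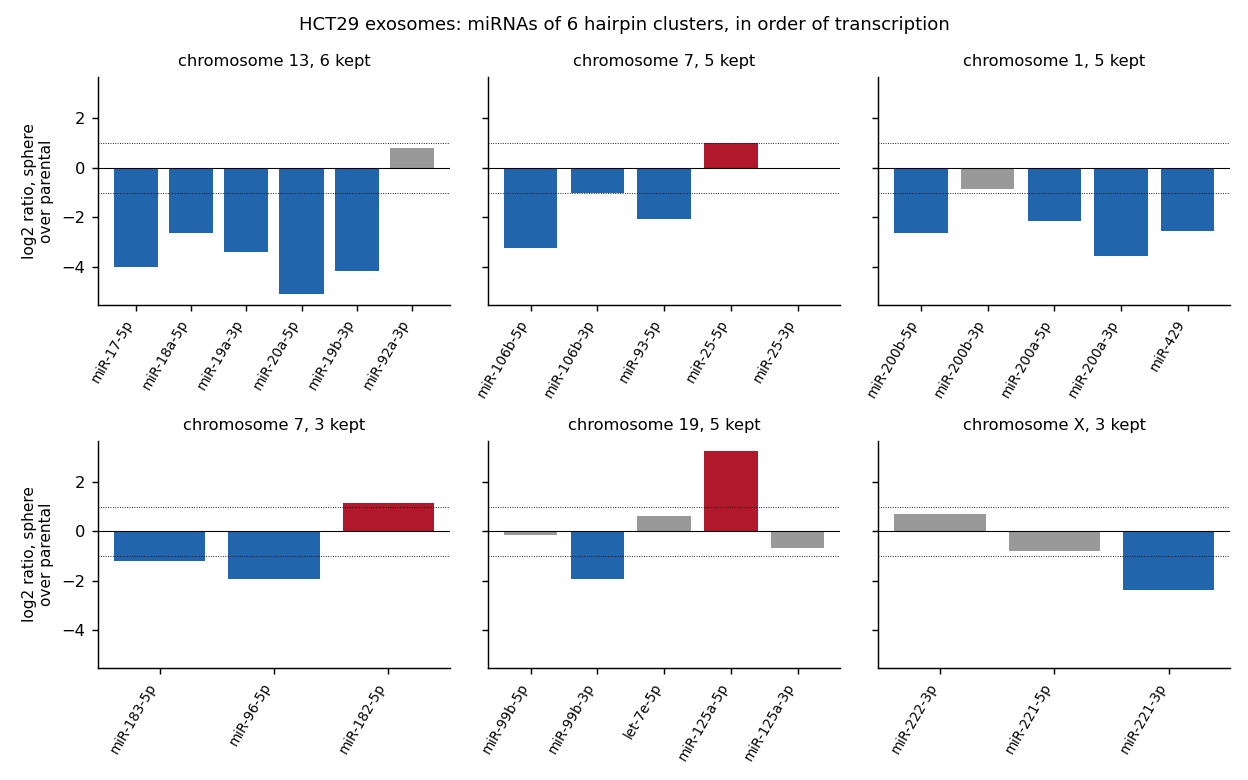
Log2 ratio of RPM + 1, sphere over parental, of the kept miRNAs of 6 hairpin clusters, in order of transcription within each panel; red is at least 2-fold higher, blue at least 2-fold lower and grey within 2-fold. Members of 1 transcript are spread widely, from -5.11 for miR-20a-5p to 0.82 for miR-92a-3p in the miR-17-92 panel.

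The miR-200 family keeps cells epithelial by repressing ZEB1 and ZEB2, and it comes from a cluster on chromosome 1 (1167104 to 1169087) and another on chromosome 12. Of its 8 kept miRNAs, 6 were lower and 0 higher (4 and 0 under TMM), against 36.2% and 23.2% of all 224 (18.3% and 38.8% under TMM), and their median log2 ratio was -1.91. miR-200a-3p had 565 RPM in the sphere library and 6732 RPM in the parental library, 11.9 times lower (10.4 to 13.7). miR-141-3p, which has its seed, had 2675 and 8449 RPM, 3.16 times lower (2.91 to 3.43), a call that TMM ended (log2 -0.68). miR-429, with the other seed of the family, had 412 and 2395 RPM, 5.81 times lower (4.84 to 6.98).

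The members of that family were spread among themselves. miR-200b-3p had 5151 RPM in the sphere and 9371 RPM in the parental library and miR-200c-3p 520 and 831 RPM, both within 2-fold. As miR-200b-3p and miR-200a-3p come from the same transcript, their ratio within a library can be read without scaling: 9.12 in the sphere and 1.39 in the parental library. In HCT15 it ran the other way, at 1.31 in the sphere and 13.9 in the parental library.

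Of the intestinal miRNAs miR-192-5p, miR-194-5p and miR-215-5p, which are abundant in gut epithelium, 1 of 3 was higher and 0 were lower. miR-192-5p had 75266 RPM in the sphere and 68268 RPM in the parental library, and miR-194-5p 1247 and 1563 RPM. miR-215-5p has the seed of miR-192-5p and stood at 0.0207 of its level in the sphere library against 0.00503 in the parental library. The seed as a whole, both miRNAs summed, was at 76823 RPM in the sphere and 68612 RPM in the parental library, a ratio of 1.12.

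A cluster in an intron of SPACA6 (chromosome 19 from 51692612 to 51693339) encodes miR-99b, let-7e and miR-125a. miR-99b-5p was level, let-7e-5p had 1750 RPM in the sphere and 1148 RPM in the parental library (1.52-fold, 1.27 to 1.85), and miR-125a-5p had 10052 and 1057 RPM. The level of miR-125a-5p was 0.0910 of that of miR-99b-5p in the sphere library and 0.00859 in the parental library. The minor strand miR-99b-3p was 3.82 times lower (2.44 to 5.94), within 2-fold under TMM (log2 -0.95), so that 1 cluster held a higher and a lower miRNA.

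let-7 miRNAs repress LIN28, RAS and HMGA2 through the seed GAGGUAG, and of the 9 kept with that seed 0 were higher and 3 lower. With the other arms, 11 were kept, of which 2 were higher and 3 lower, and the median log2 ratio was -0.48 (0.50 under TMM, with 3 higher and 1 lower). The 2 higher were the 3p arms let-7d-3p and let-7b-3p, the last on 1 parental read with an interval that spans 1 (0.816 to 206). The abundant members lay within 2-fold, with let-7f-5p at 11548 RPM in the sphere and 16084 RPM in the parental library and let-7a-5p at 8917 and 11331 RPM. miR-98-5p differs from let-7f-5p at few bases outside the seed and had 687 and 5919 RPM, 8.61 times lower (7.56 to 9.81). Both have a hairpin on chromosome X from 53556223 to 53557274, and let-7f-5p was at 16.8 times miR-98-5p in the sphere and 2.72 times in the parental library. Counting of near-identical miRNAs can split or share reads between them, which was not tested.

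Further pairs of near relatives also differed. miR-10b-5p, from the HOXD cluster, had 589.5 RPM in the sphere and 4780.2 RPM in the parental library, 8.11 times lower (7.04 to 9.35), while its relative miR-10a-5p was level. miR-221-3p, which targets the cell cycle inhibitor CDKN1B, had 1399 and 7310.3 RPM, 5.22 times lower (4.72 to 5.78). miR-222-3p, of the same seed and transcript (chromosome X from 45746157 to 45747124), had 3545 and 2169 RPM, 1.63-fold higher (1.43 to 1.88). The level of miR-222-3p was thus 2.53 times that of miR-221-3p in the sphere library and 0.297 times in the parental library. In HCT15 it was 1.95 times in the sphere and 1.21 times in the parental library.

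The sensory organ cluster miR-183-96-182 on chromosome 7 (129770383 to 129775014) was split as well, with 1 of its 3 miRNAs higher and 2 lower; under TMM the same 1 was higher and 0 were lower. miR-182-5p had 43534 RPM in the sphere and 19654 RPM in the parental library, 2.22-fold higher (2.12 to 2.32). miR-183-5p had 7786 and 17919 RPM, 2.30 times lower (2.18 to 2.43), and miR-96-5p 37.7 and 145 RPM. The level of miR-182-5p was 5.59 times that of miR-183-5p in the sphere library and 1.10 times in the parental library.

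All 3 kept miRNAs of the miR-15 and miR-16 family, which targets BCL2 and cyclins, were lower (2 under TMM), and miR-16-5p had 1211 RPM in the sphere and 6479 RPM in the parental library, 5.35 times lower (4.80 to 5.96). Both kept miR-29 miRNAs, which repress collagens, were lower under RPM and TMM. miR-29a-3p had 188 and 913 RPM, 4.85 times lower (3.64 to 6.45). miR-29b-3p had 0 sphere and 20 parental reads, 32.0 times lower against the floor of 3 sphere reads. miR-561-5p was the other miRNA with 0 sphere reads, on 11 parental reads, 17.6 times lower against that floor. Neither ratio to the floor includes the counting error of the parental reads.

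The miR-30 family had 5 of 7 kept miRNAs lower and 1 of 7 under TMM. That 1, miR-30b-5p, had 190.2 RPM in the sphere library and 2395 RPM in the parental library, 12.6 times lower (9.97 to 16), while miR-30d-5p of the same cluster was at 9193 and 10636 RPM. Of the miR-23, miR-27 and miR-24 clusters, 3 of 6 were lower and 0 higher, against 2 lower and 1 higher under TMM. miR-23b-3p had 456 and 2439.8 RPM, 5.35 times lower (4.48 to 6.39), and miR-27b-3p of its cluster 26143 and 21172 RPM. In the miR-181 family, 2 of 6 were lower, a share near that of all 224, and under TMM 2 were higher and 1 lower. Its abundant miR-181a-5p was within 2-fold at 22030 RPM in the sphere and 28871 RPM in the parental library.

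Among single miRNAs known in tumours, miR-101-3p, which represses EZH2, had 117 RPM in the sphere and 913 RPM in the parental library, 7.82 times lower (5.64 to 10.9). The hypoxia-induced miR-210-3p had 136 and 515 RPM, 3.80 times lower (2.64 to 5.45), within 2-fold under TMM (log2 -0.94). miR-31-5p had 1680.1 and 3316 RPM, within 2-fold. miR-34a-5p, a p53 target, had 11 sphere reads and 1 parental read, a ratio of 2.29 with an interval of 0.333 to 98.7 that spans 1.

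The remaining lists were small. Of 5 kept miRNAs of the miR-320, miR-484 and miR-3615 group, which are processed outside the usual Drosha step, 1 was higher and 0 lower (4 higher under TMM). In the miR-191 and miR-425 cluster 1 of 4 was higher and 1 lower, both with intervals that span 1 (3 higher and 0 lower under TMM). In the miR-130, miR-301 and miR-454 group 1 of 6 was higher and 3 lower (2 and 1 under TMM). The miR-378 family had 1 of 3 lower, the miR-148 and miR-152 family 2 of 3, miR-26 1 of 2 and the miR-203, miR-205 and miR-31 group 1 of 4, each with 0 higher and at most 1 lower under TMM. Of miR-146 and miR-155, 1 of 3 was higher and 1 lower (2 and 0 under TMM), and the lower one, miR-155-5p, had an interval that spans 1 (0.194 to 1.25 as a ratio).

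**Figure D4:**
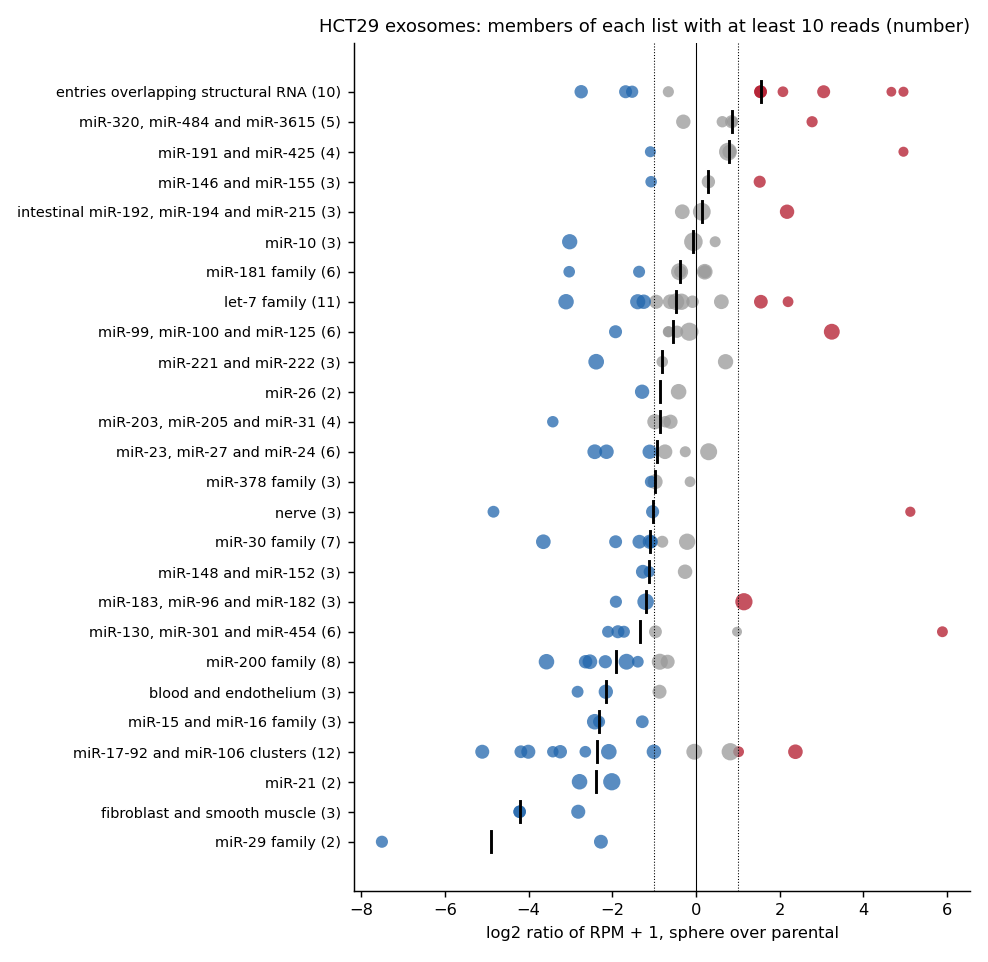
Log2 ratio of RPM + 1, sphere over parental, of the kept miRNAs of each list with 2 or more of them; 1 dot is 1 miRNA, sized by its mean RPM, red at least 2-fold higher, blue at least 2-fold lower and grey within 2-fold, and the black tick is the median of the list. Most medians lie below 0, as does the median of all 224 miRNAs at -0.57, and the point at -7.51 is miR-29b-3p, with 0 sphere reads.

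miRNAs of cell types other than colon epithelium were mostly lower in the sphere library where they were measured. The 7 blood markers summed to 360 RPM in the sphere library and 1645 RPM in the parental library, and 4 and 7 of them had a read. Nearly all of those reads were miR-486-5p, with 322 RPM in the sphere and 1437 RPM in the parental library, 4.46 times lower (3.57 to 5.57). The defining erythroid miR-451a had 0 sphere and 2 parental reads, and the myeloid miR-223-3p 0 and 3. Of the 3 kept miRNAs of the blood and endothelium list, 2 were lower and 0 higher, also under TMM. The liver miRNA miR-122-5p had 0 sphere reads and 1 parental read.

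The 6 markers of fibroblasts and smooth muscle summed to 181 RPM in the sphere and 1482 RPM in the parental library, with miR-199a-5p and miR-214-3p at 0 reads in both. miR-143-3p had 168 and 1184 RPM, 7.06 times lower (5.35 to 9.35), and miR-199a-3p 13.2 and 262 RPM, 19.9 times lower (8.52 to 53.7). miR-199b-3p has the same sequence and the same values, as have the pairs miR-365a-3p with miR-365b-3p and miR-550a-5p with miR-550a-3-5p, so 3 of the 224 miRNAs repeat another. All 3 kept miRNAs of the list were lower, also under TMM. The endothelial pair miR-126-3p and miR-126-5p summed to 450.2 RPM in the sphere and 849 RPM in the parental library. Of 3 kept miRNAs from the nerve list, miR-132-3p was higher and miR-7-5p and miR-128-3p were lower, the last within 2-fold under TMM. The parental cells were in complete RPMI and the spheres in defined medium, so medium and culture cannot be told apart, and the part of either in these values was not tested.

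Of 10 kept entries that overlap other abundant RNAs, 6 were higher and 3 lower. miR-1260a and miR-1260b, near-identical short entries, were both 2.94-fold higher, with intervals of 1.5 to 6.58 and 1.55 to 6.26, and miR-1246 had 82.9 RPM in the sphere and 560.2 RPM in the parental library, 6.76 times lower (4.52 to 10.2). The median log2 ratio of the 10 was 1.54, and 0.0030 with counts of 0 set at their floor, so it rests on entries with few parental reads.

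Both arms were kept for 34 hairpins, and the share of the 5p arm had intervals that stood apart between the libraries in 13 of them. These shares are ratios within a library. let-7d-5p was 46.5% of both arms in the sphere library (42.7 to 50.3) and 85.9% in the parental library (80.0 to 90.6). miR-455-5p was 71.2% (56.9 to 82.9) and 37.8% (22.5 to 55.2), and miR-454-5p 70.5% (54.8 to 83.2) and 0% (0 to 26.5). In 4 hairpins, these 3 among them, the larger arm was not the same in both libraries; the fourth, miR-3605, had 4 parental reads in all.

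Under RPM, 1 arm was higher and the other lower in 3 hairpins: let-7d, miR-28 and miR-454. Under TMM, let-7d-5p (log2 -0.27) and miR-28-5p (-0.28) were within 2-fold. The interval of miR-28-5p also spans 1 (0.178 to 1.05 as a ratio). miR-28-3p had 4204 RPM in the sphere and 1708 RPM in the parental library, 2.46-fold higher (2.12 to 2.87), while its 5p arm was 0.800% of both arms in the sphere library and 4.55% in the parental library. Both arms were lower in 6 hairpins, including miR-21, whose minor strand miR-21-3p had 936 and 6443 RPM, 6.88 times lower (6.13 to 7.73). Under TMM both arms stayed lower in miR-21, but not in miR-30e (log2 -0.12 for 5p and -0.09 for 3p). Under RPM, both arms were higher in 0 hairpins. Under TMM they were higher in some, such as miR-423 (2.10 for 5p and 1.63 for 3p) and miR-151a (1.57 and 1.10). The median absolute difference between the arms of a hairpin was 1.37 on the log2 scale.

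miRNAs of neighbouring hairpins were also spread. Hairpins within 10 kb of each other formed 32 clusters, the miR-941 copies with 1 kept miRNA among them. Counting both arms of each hairpin, under RPM 17 had log2 ratios more than 2 apart and 5 held a higher and a lower miRNA. Of these 5, the let-7d cluster did so through both arms of let-7d alone. The miR-191 and miR-425 cluster did so through arms whose intervals span 1. In the miR-25 cluster the only higher miRNA was miR-25-5p, on 2 parental reads with an interval that spans 1. In 5 clusters all kept miRNAs were lower under RPM, among them both miR-15 and miR-16 clusters, which share miR-16-5p, and the miR-29a cluster. Under TMM, miR-15b-5p (log2 -0.31), miR-181c-5p (-0.40) and the miR-30e cluster (-0.38 to -0.09) came within 2-fold. The miR-15a and miR-29a clusters stayed lower in all their kept miRNAs. Some of these miRNAs have a further hairpin elsewhere, so their reads need not come from the cluster, and the cause of the spread was not tested.

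Base composition went along with the ratio. A RefSeq sequence was found for 195 of the 224 miRNAs (87.1%), of which 48 were higher (24.6%) and 68 lower (34.9%). The GC content of the higher miRNAs had a median of 57.1% and that of the lower ones 42.5%, against 47.8% in all 195. Among those with at least 10 reads in both libraries the medians were 54.5% for 15 higher and 45.5% for 53 lower miRNAs, against 47.6% for all 122. Among those of at most 40% GC, 2 of 35 were higher and 19 lower (median log2 -1.29). From 40 to 45% these were 5 and 19 of 36 (-1.11). From 45 to 50% they were 12 and 13 of 49 (-0.25). Above these the balance turned, with 12 higher and 8 lower of 36 from 50 to 60% (0.23), and 17 higher and 9 lower of 39 over 60% GC (0.63).

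Over the 195 miRNAs the log2 ratio and GC content had a Pearson r of 0.40 and a Spearman rho of 0.45, given as a description, since the miRNAs share both libraries and many share sequence. It was of similar size among better-counted miRNAs: r was 0.50 over the 105 with at least 50 reads in either library, 0.52 over the 64 with at least 200, and 0.36 over the 122 with at least 10 reads in both. Of single bases, A content had an r of -0.44 and C content 0.38, while G and U had -0.01 and -0.03. With TMM or DESeq2 factors r over the 195 was 0.41 and 0.40, but a nearly even shift of all ratios can change r only little.

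HCT15, treated alike, did not show that relation. Its sphere and parental libraries had 461226 and 146648 reads, with a depth ratio of 3.15, and kept 305 miRNAs, 98 higher (32.1%) and 86 lower (28.2%). Over 267 of them with a sequence, r was -0.13 and rho -0.19, and over the 166 kept in both lines with a sequence r was 0.49 in HCT29 and -0.16 in HCT15. The median log2 ratio from the lowest to the highest GC range in HCT15 was -0.07, 0.38, 0.89, -0.74 and -0.63. The cause of the GC relation in HCT29 was not tested.

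**Figure D5:**
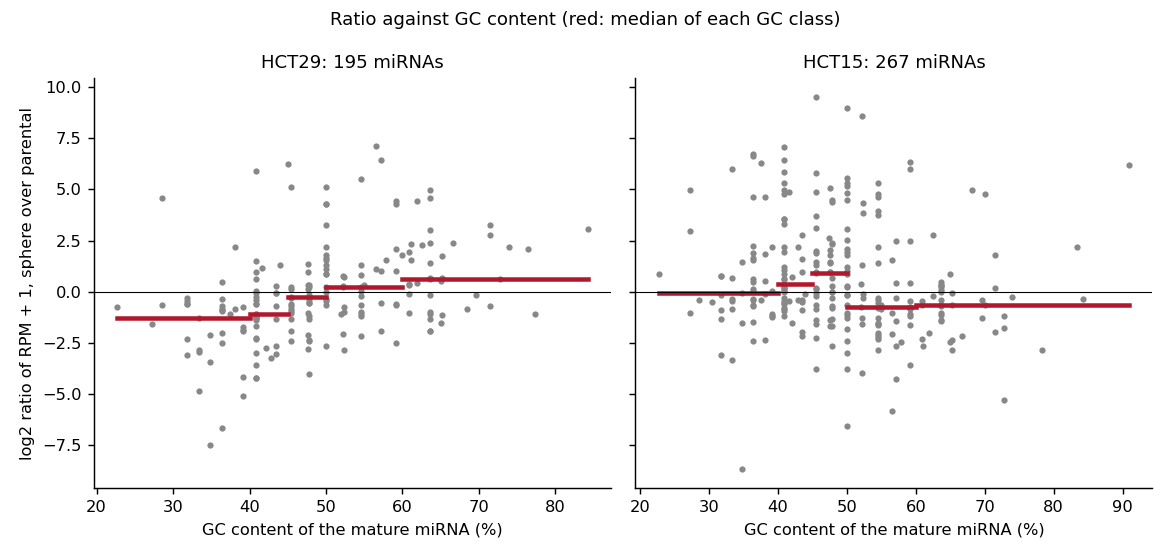
Log2 ratio of RPM + 1, sphere over parental, against GC content of the mature sequence (%), 1 point per miRNA, for HCT29 (195 miRNAs) and HCT15 (267 miRNAs); red lines are medians of GC ranges. The HCT29 medians go from -1.29 at up to 40% GC to 0.63 over 60%, and the HCT15 medians show no such order.

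Single miRNAs departed from that relation. miR-215-5p is 38.1% G and C and was among the highest, and miR-182-5p at 41.7% was higher, whereas miR-93-5p at 52.2% and miR-210-3p at 63.6% were lower. Pairs that share a seed also differed in GC, such as miR-221-3p at 47.8% and miR-222-3p at 52.4%, or miR-17-5p at 47.8% and miR-93-5p at 52.2%. In 16 of 23 hairpins with both arms kept and unequal, known GC, the arm with more GC had the higher ratio.

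Short motifs were counted on the mature strand. A run of CCC stood in 18 of 48 higher miRNAs (37.5%) and 4 of 68 lower ones (5.88%), against 39 of all 195 (20%). Of the higher miRNAs many passed the read minimum through the sphere library alone, and among the 122 with at least 10 reads in both libraries CCC stood in 4 of 15 higher (26.7%) and 2 of 53 lower ones (3.77%), against 16 of 122 (13.1%). GGAG, a motif described for sorting of miRNAs into exosomes, stood in 3 of 48 higher (6.25%) and 3 of 68 lower miRNAs (4.41%), against 12 of 195 (6.15%). CCCU, described for the same role and overlapping CCC, stood in 6 of 48 (12.5%) and 3 of 68 (4.41%), against 17 of 195 (8.72%). Among the 122 with at least 10 reads in both libraries, CCCU stood in 1 of 15 higher (6.67%) and 2 of 53 lower ones (3.77%), against 7 of 122 (5.74%). In the same set GGAG stood in 0 of 15 higher and 3 of 53 lower ones (5.66%), against 6 of 122 (4.92%). A match is a description of the letters, and C runs follow GC content. Length was alike, with a median of 22 nt in the higher and the lower miRNAs.

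For the miRNAs named above, the HCT15 values set beside those of HCT29 differ in many cases. miR-375 had 4599 RPM in HCT15 spheres and 5714 RPM in HCT15 parental exosomes, and miR-125a-5p 7781 and 6417 RPM. miR-21-5p had 31319 and 22776 RPM in HCT15, against 13124 and 52898 RPM in HCT29. miR-17-5p and miR-20a-5p were on the lower side in both lines, with log2 ratios of -4.01 and -5.11 in HCT29 and -1.33 and -1.23 in HCT15. Each line has 1 library per culture, so the difference between the lines was not tested.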

How the data were processed

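Exosome small RNA libraries (TruSeq small RNA chemistry, per the labels' protocols) of HCT29 spheres and HCT29 parental cells were compared, 1 library each. The deposited values are RPM per mature miRNA; the file headers of the HCT15 tables name that unit, those of the HCT29 tables name none, and the HCT29 values were read as RPM because 100% of them are whole multiples of 1 step within 0.01 read and sum to less than 1000000. The submitters' processing notes name hg19; the aligner and annotation: not given in the sources used here. Reads were recovered by dividing by that step.

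From the RPM, log2((sphere + 1)/(parental + 1)) was computed for miRNAs reaching 10 reads in 1 or both HCT29 libraries and called at 2-fold. Folds in the text are RPM ratios with exact 95% Clopper-Pearson intervals on recovered reads; intervals and floors (3 reads) cover counting error only, as reads carry no molecular identifiers. With 1 library per group there is no test. Alternatives were TMM (edgeR 4.0.16) and DESeq2 1.42.0 size factors in R 4.3.3, scaling to the listed miRNAs, other pseudocounts, filters and thinning. A count test (edgeR) on the recovered reads has no residual degrees of freedom with 1 library per group, so it was not run. Scripts were tested on simulated data (Python 3.11.15, numpy 2.4.6, pandas 2.3.3, scipy 1.17.1, matplotlib 3.10.9).

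Mature sequences are from RefSeq (GRCh38.p14) and hairpin positions and hosts from GENCODE (GRCh38). The members and the 33 lists were chosen with earlier results of these data known. Named miRNAs are the 15 highest and 15 lowest called ratios with an interval clear of 1 and 50 RPM or more in either library, the top 10 of each library by level, the 5 most abundant of every list, plus miR-21-5p and miR-146a-5p. miRNAs named outside that rule, after their values were seen, are the marker miRNAs given with their reads (such as miR-122-5p), the examples at the read minimum, the arms of miR-28, miR-455, miR-3605 and let-7d, let-7b-3p, miR-25-5p, the identical pairs, and those under the other observations.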

Additional observations from a re-analysis of the deposited data

Results flagged for a closer look

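Of the 117 miRNAs named by rule, 20 were at least 2-fold lower or higher in HCT29 spheres and at least 2-fold the other way in HCT15. Spheres were set against the parental library of their own line, and the counting intervals were clear of 1 in both lines. The same count over all kept miRNAs was not made, and the rule chose miRNAs in part by their HCT29 ratios. The 20 are not all such miRNAs. Outside the rule, miR-107 (-1.18 in HCT29 and 4.38 in HCT15) and miR-103a-3p (-1.34 and 2.40) also went opposite ways. So did let-7d-3p (1.55 in HCT29 and -1.84 in HCT15) and miR-28-3p (1.30 and -1.15). Each side is 1 library, the difference between the lines was not tested, and values are log2 ratios of RPM + 1, sphere over parental.

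Of these, 14 were lower in HCT29. miR-29b-3p was at -7.51 in HCT29 and 1.45 in HCT15, on 0 sphere reads in HCT29. There the ratio depends on the added 1, and it was 32.0 times lower against the 3-read floor. miR-199a-3p and the identical miR-199b-3p were at -4.21 in HCT29 and 3.54 in HCT15. Both are markers of fibroblasts and smooth muscle, of which 3 of 3 kept miRNAs were lower in HCT29 (36.2% of all kept) and 7 of 7 higher in HCT15 (32.1% of all kept). miR-143-3p, of the same list, was at -2.81 in HCT29 and 1.42 in HCT15. In the miR-200 family, miR-200a-3p was at -3.57 and 1.93, and miR-141-3p at -1.66 and 3.33, HCT29 before HCT15. The minor strand miR-21-3p was at -2.78 in HCT29 and 1.71 in HCT15, and miR-29a-3p at -2.27 and 1.19.

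In the clusters of miR-23, miR-27 and miR-24, miR-23a-3p was at -2.14 in HCT29 and 1.80 in HCT15, and miR-24-3p at -1.11 and 3.76. Of the sensory organ cluster, miR-96-5p was at -1.91 in HCT29 and 2.18 in HCT15, and miR-183-5p at -1.20 and 2.21. miR-4792 was at -1.68 in HCT29 and 3.05 in HCT15, and miR-15b-5p at -1.28 and 1.05. Under TMM, 6 of the 14 (miR-96-5p, miR-4792, miR-141-3p, miR-15b-5p, miR-183-5p and miR-24-3p) were within 2-fold in HCT29.

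The other 6 were higher in HCT29. miR-1260a was at 1.54 in HCT29 and -2.66 in HCT15, and miR-1260b at 1.54 and -2.44. miR-671-3p was at 2.38 in HCT29 and -2.17 in HCT15, on 2 parental reads in HCT29. miR-3615 was at 2.78 in HCT29 and -1.95 in HCT15, on 1 parental read in HCT29. miR-454-5p was at 5.89 in HCT29 and -2.23 in HCT15, and miR-1468-5p at 6.42 and -4.26, both on 0 parental reads in HCT29, where the ratio depends on the added 1.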

How the results depend on the processing

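The counts of 52 higher and 81 lower miRNAs and the median log2 ratio of -0.57 depend on the scaling. TMM gave 87 higher, 41 lower and a median of 0.39, and DESeq2 size factors gave 83, 48 and 0.28. Without the read filter, 176 were higher and 236 lower, and Pearson's r with GC content was 0.26. A minimum of 50 reads gave 22 higher and 44 lower. Thinning the sphere reads to the parental total gave 23 higher and a median of -0.89. 2 alternatives were chosen after seeing the data. The same RPM minimum in both libraries gave 22 higher and a median of -0.87. Subtracting the median of each GC range gave 52 lower among the 195 miRNAs with a sequence, of which 68 were lower before. The other pseudocounts and scaling to the listed miRNAs kept these counts within 1.5 times. The median of the entries overlapping other RNAs became -0.31 after thinning, and with the GC medians subtracted miR-155-5p came to 0.22 and miR-30e-5p to 0.0074, from the lower side; the cause was not tested.

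All 22 named higher miRNAs kept their call under TMM and DESeq2 factors. Both move every log2 ratio up, so no higher call could be lost. Of the 55 named lower ones, 32 kept it under TMM and 37 under DESeq2 factors, and 15 named miRNAs within 2-fold became higher under TMM. After subtracting GC medians, 21 of 22 and 32 of 48 kept it. The parental depth of 110666 reads limits ratios above 1 most, as 10 reads are 90.4 RPM there. No paired analysis was possible because each group has 1 library and the labels give no replicate numbers.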

Other observations

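Several miRNAs outside the families described were well counted and differed between the libraries, and were chosen after their values were seen. miR-941, a human-specific miRNA with several hairpin copies on chromosome 20, had 5794 RPM in the sphere library and 1717 RPM in the parental library, 3.37-fold higher (2.91 to 3.93). miR-423-5p had 2835 and 1301 RPM, 2.18-fold higher (1.84 to 2.60), and miR-224-5p 542 and 217 RPM, 2.5-fold higher (1.65 to 3.97). On the lower side, miR-598-3p had 77.2 RPM in the sphere and 831 RPM in the parental library, 10.8 times lower (7.37 to 16). miR-186-5p had 1991 and 5566 RPM, 2.80 times lower (2.53 to 3.09), and the pair miR-103a-3p and miR-107, which share the seed GCAGCAU, summed to 2145 and 5286 RPM, 2.46 times lower. Under TMM miR-186-5p, miR-103a-3p and miR-107 were within 2-fold.

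miR-577, at 28.6% GC, was within 2-fold, with 4826 RPM in the sphere and 7627 RPM in the parental library, 1.58 times lower (1.46 to 1.71). miR-7-5p, which targets EGFR, had 2 sphere and 15 parental reads, 36.0 times lower (8.37 to 324).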
